A study of Homo sapiens with 4 samples.

Results

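Olfactory receptor genes encode the odorant receptors of the nose, a very large family of G protein-coupled receptors, and the chromatin contacts around them were described in SH-SY5Y neuroblastoma cells with and without TDP-43. The genes were taken by symbol: every autosomal protein-coding gene named OR, a family number, 1 or 2 letters and a member number. This gave 386 genes among 18973 autosomal protein-coding genes, 331 of class II and 55 of class I (families 51, 52 and 56). They lie on 17 autosomes, and chromosome 11 alone carries 168 of them (43.5%). A deposited list of 89239 pairs of 50 kb genome bins holds 48992 pairs of a bin with itself, called same-bin pairs here, and 171 of these overlap an olfactory receptor gene. The symbol rule itself uses no measured value, though it was set with earlier results of these data known.

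As background, a mature olfactory neuron expresses 1 receptor allele at a time, and the other receptor genes are silent and packed into heterochromatin. In olfactory neurons these silent clusters gather into a few nuclear aggregates, while an enhancer hub contacts the chosen gene. An active receptor signals through the G protein encoded by GNAL and the adenylyl cyclase encoded by ADCY3. Class I receptors resemble those of fish, and class II receptors make up most of the mammalian repertoire. SH-SY5Y is an established human neuroblastoma line and not an olfactory cell.

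The study compared 2 control libraries with 2 libraries of cells in which a hairpin RNA (shRNA) stably lowers TDP-43, the nucleic acid-binding product of TARDBP. Contacts were mapped by Micro-C, a chromosome conformation method that cuts chromatin with micrococcal nuclease, on equal numbers of cells per replicate. Per the labels, short hairpins were delivered by lentivirus as pools of infected cells, and knockdown cells went through 2 weeks of puromycin selection (2 µg/mL) before culture at 1 µg/mL. A negative-control hairpin is named in the labels but is not tied there to a library, and no puromycin treatment is stated for the control cells. The labels do not name separate cultures for the replicates. The p-values therefore measure only the spread between these libraries, which may be technical. A hairpin acts on RNA, so contact maps give no check of the knockdown, and neither receptor expression nor cell-type markers can be read from them.

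Summed counts over the list were 158400914 and 163147992 for control cells, and for knockdown cells 115168160 and 142424414. The median olfactory receptor bin had 547 and 498 contacts with control cells, against 449 and 550 after knockdown. The smallest count of any such bin in 1 library was 172. Levels below are CPM, contact counts scaled to a common library size, after TMM scaling, a correction of library size by edgeR. A bin was called higher or lower when the adjusted p of edgeR's quasi-likelihood test, by Benjamini-Hochberg over all 89239 pairs, was under 0.05. Fold changes run from control to knockdown on the log2 scale.

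The promoters of these genes differ in base composition from those of most genes. RefSeq (GRCh38.p14) gave a promoter of 300 bases, from 250 before to 50 after the annotated start, for 311 of the 386 genes. Their median GC content was 37.7%, against 63% over 15101 autosomal protein-coding promoters, and their median number of CpG dinucleotides was 1, against 22. The letters TATAAA stood on either strand of 109 olfactory receptor promoters (35.0%), against 9.71% of all promoters. The homeodomain-type letters TAATTA stood in 71 (22.8%, against 3.40%) and TAATTG in 75 (24.1%, against 5.83%). The palindromic EBF-type motif stood in 3 (0.965%, against 1.41%). These shares were not matched for GC content, and the length of 56.7% of the gene models is a multiple of 3, so many annotated starts may be coding starts rather than transcription starts.

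Below are 4 of these promoters, 5′ to 3′ on the gene's strand, with matches on either strand to the TATA and homeodomain-type motifs named above in capitals. OR4C15 lies in the bin with the largest increase after knockdown, OR2T27 in the bin with the largest decrease, and OR52B2 and OR52W1 lie where adjoining bins moved in opposite directions.
OR4C15 (chr11:55554219-55554518, plus strand): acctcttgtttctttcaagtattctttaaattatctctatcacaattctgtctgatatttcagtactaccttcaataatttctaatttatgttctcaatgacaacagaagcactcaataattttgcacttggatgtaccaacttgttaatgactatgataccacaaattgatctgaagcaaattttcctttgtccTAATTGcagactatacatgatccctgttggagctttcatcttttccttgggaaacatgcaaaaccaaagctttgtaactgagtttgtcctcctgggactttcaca
OR2T27 (chr1:248655479-248655778, minus strand): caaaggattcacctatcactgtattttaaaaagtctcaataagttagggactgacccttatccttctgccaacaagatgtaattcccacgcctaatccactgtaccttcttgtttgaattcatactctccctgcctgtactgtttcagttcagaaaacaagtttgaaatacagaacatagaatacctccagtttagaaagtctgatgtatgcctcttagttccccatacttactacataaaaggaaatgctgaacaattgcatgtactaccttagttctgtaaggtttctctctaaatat
OR52B2 (chr11:6170277-6170576, minus strand): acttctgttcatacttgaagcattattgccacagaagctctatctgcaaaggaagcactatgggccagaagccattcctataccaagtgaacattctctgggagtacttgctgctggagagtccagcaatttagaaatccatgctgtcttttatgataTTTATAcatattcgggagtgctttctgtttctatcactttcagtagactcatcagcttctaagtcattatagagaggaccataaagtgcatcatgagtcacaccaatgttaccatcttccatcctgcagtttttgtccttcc
OR52W1 (chr11:6198974-6199273, plus strand): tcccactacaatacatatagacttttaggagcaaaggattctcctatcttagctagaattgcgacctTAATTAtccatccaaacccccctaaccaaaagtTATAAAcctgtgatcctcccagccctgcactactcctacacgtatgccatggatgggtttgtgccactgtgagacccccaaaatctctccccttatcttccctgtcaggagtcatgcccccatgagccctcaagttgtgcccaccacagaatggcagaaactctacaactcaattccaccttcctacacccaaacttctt
OR2T27 holds none of these motifs, and OR52B2 holds TATAAA on the opposite strand. OR52W1 holds TAATTA followed by TATAAA.

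The list covers only a part of the family. Of the 386 genes, 246 (63.7%) lay in a listed same-bin pair and 140 did not, whereas 94.3% of all autosomal protein-coding genes did (17891 of 18973). By class, 32 of 55 class I genes (58.2%) and 214 of 331 class II genes (64.7%) were listed. The list starts at a mean level of 0.63 (log2 CPM), or 1.55 CPM over the 4 libraries, so an unlisted bin is one below that level or one left out for another reason. Genes of this family are short, with a median length of 3077 bases, and 81 of the 171 bins held more than 1 of them, up to 4.

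Joined over gaps of at most 1 Mb, the genes fall into 38 clusters and single genes, and 17 clusters of 5 or more genes hold 350 of them. In 4 of these clusters every gene was listed. One is the chromosome 9 cluster from OR1J2 to OR1K1 with 14 genes, 2 are the chromosome 19 clusters from OR7C1 to OR10H4 with 11 and from OR2Z1 to OR7D4 with 8, and 1 is the chromosome 9 cluster from OR13F1 to OR13D1 with 8. The largest cluster, from OR52B4 to OR10A3 on chromosome 11 (4367263 to 7941708), had 40 of 67 genes listed. The pericentromeric chromosome 11 cluster from OR4C46 to OR5AK2 (54603069 to 56989843) had 21 of 48. At the other extreme, none of the 14 genes from OR2W1 to OR2H2 on chromosome 6 (29044213 to 29590500) was listed. No same-bin pair at all is listed there between 28500001 and 33450000, a stretch of 4.95 Mb around the extended major histocompatibility complex, so that absence is not particular to the receptors.

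**Figure D1:**
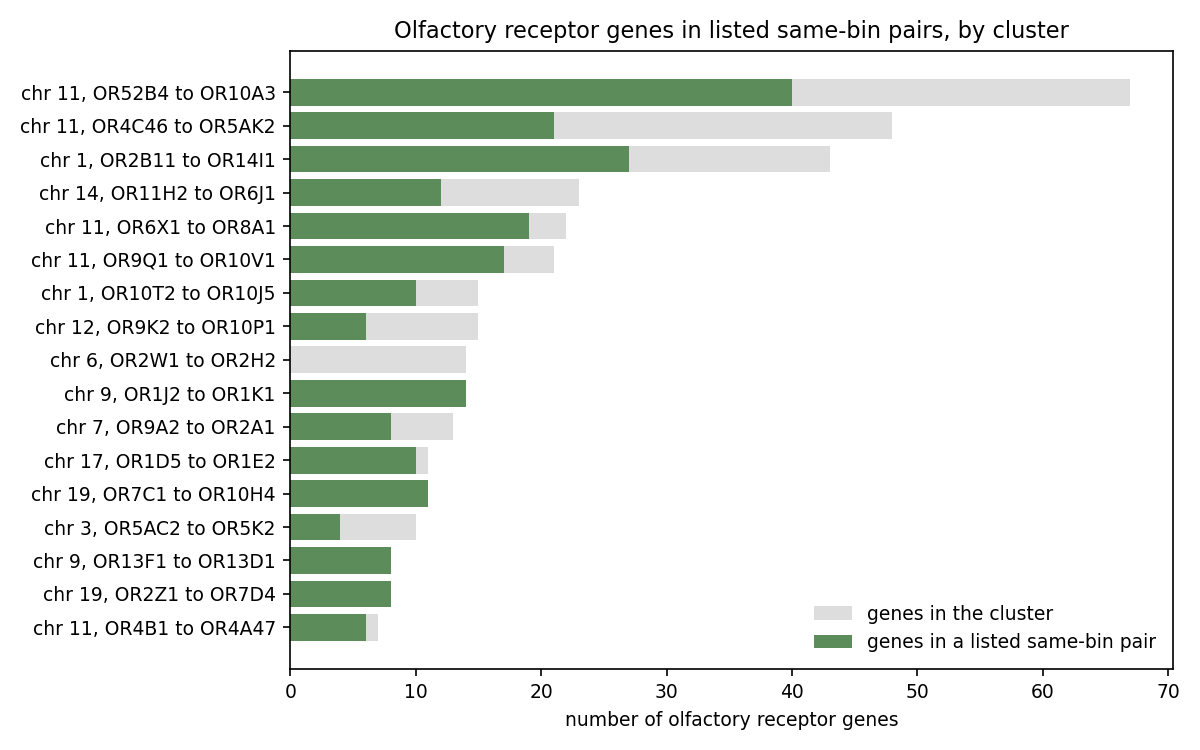
Olfactory receptor genes per chromosome cluster of 5 or more genes: the light bar is the number of genes in the cluster and the green bar the number in a listed same-bin pair. The chromosome 6 cluster has 0 of 14 genes listed, and 4 clusters have all of them.

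Within-bin contact levels over receptor genes were low among listed bins. In control cells the median olfactory receptor bin held 3.43 CPM, against 7.35 CPM over all same-bin pairs, and 133 of 171 bins (77.8%) were below the median of all. Library by library the median was 3.58 and 3.23 CPM in control cells and 3.71 and 3.70 CPM in knockdown cells. The 129 bins with no other protein-coding gene had a median of 2.90 CPM, and the 42 bins that also overlap another gene had 7.95 CPM. By comparison, the 18195 same-bin pairs without any protein-coding gene had a median of 3.82 CPM. The range ran from 1.26 CPM at OR4C15 and OR4C16 to 87.0 CPM at OR1F1 on chromosome 16.

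After knockdown, most olfactory receptor bins had no detectable change, and the balance of rises and falls among the rest differed between scalings. With TMM scaling 20 of the 171 bins were called, 12 higher and 8 lower, and in all 20 the control and knockdown libraries did not overlap. Over all same-bin pairs 21.7% were called, 7.4% higher and 14.3% lower, beside 7.02% and 4.68% of the receptor bins. Without adjustment 34 of the 171 bins had a p under 0.05 in the same test, against 16686 of all 48992 same-bin pairs. The median fold change was 0.08, against 0.02 for all same-bin pairs, with 105 bins above 0 and 66 below. Bins with receptor genes alone had 9 higher and 3 lower of 129, against 9.07% and 5.34% (14.4% in all) of same-bin pairs without any protein-coding gene, and the median was 0.08 in both sets. The libraries did not overlap in 55 bins that were higher and 24 that were lower, against 31.4% and 28.5% of all same-bin pairs (59.9% in either direction).

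Those counts depend on how the libraries were scaled. Fold changes across the genome fell with contact level, from a median of 0.13 in the lowest of 10 level classes to -0.29 in the highest. After a loess fit had removed this trend, 10 receptor bins were called, 5 higher and 5 lower, against 13% of all same-bin pairs (7.89% higher and 5.12% lower), and their median was 0.02, against 0.03 for all. DESeq2 called 9 bins, 3 higher and 6 lower, against 16.7% of all (3.73% higher and 13% lower). By the authors' deposited table, a total of 10 bins were past the threshold, 5 higher and 5 lower, against 13.1% of all (8% higher and 5.12% lower). In the TMM fit, leaving out knockdown library 1 left 5 calls and leaving out knockdown library 2 left 7, while leaving out control library 1 or 2 left 17 and 16. The loess fit without knockdown library 1 or 2 gave 0 and 1 calls, and without control library 1 or 2 it gave 11 and 12.

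**Figure D2:**
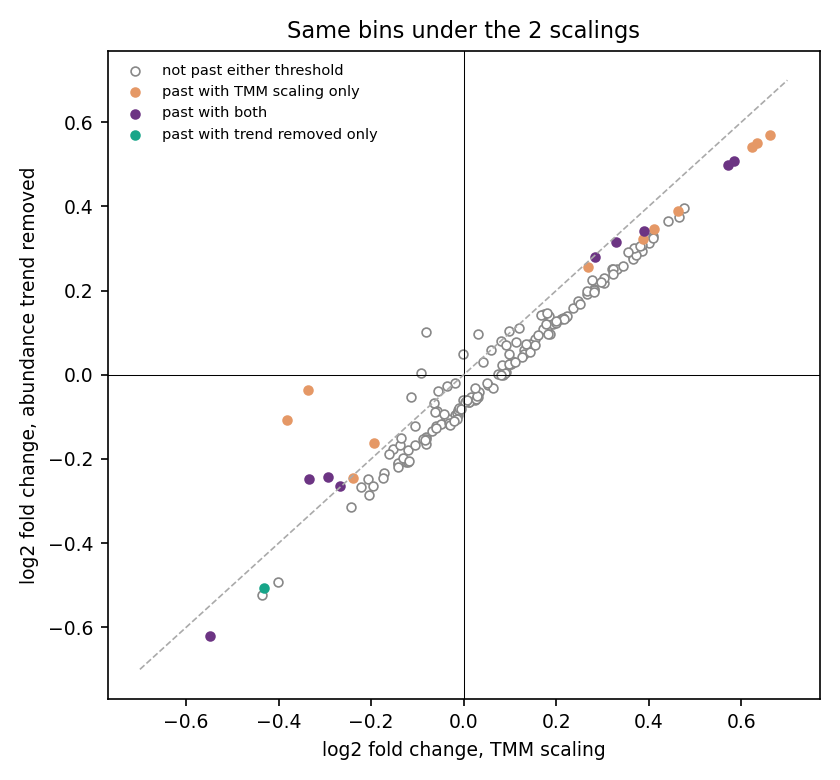
Each point is 1 of the 171 olfactory receptor bins, with its log2 fold change under TMM scaling on the x axis and with the abundance trend removed on the y axis. Of the 20 bins past the threshold with TMM scaling, 9 were also past it with the trend removed, in the same direction, and 1 bin was past it with the trend removed alone.

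The same counts were read beside bins of like level. The lowest 4 of 10 level classes hold 124 of the 171 bins, and there the receptor median was 0.10, against 0.12 for all same-bin pairs of those classes. In that range 8 receptor bins (6.45%) were higher and 1 was lower, against 6.74% and 0.847% of all. In the upper 6 classes the receptor median was -0.04 against -0.03, and 4 of 47 bins (8.51%) were higher and 7 (14.9%) lower, against 7.84% and 23.2%. Under loess scaling the medians were 0.03 for receptor bins and 0.04 for all in the lower range, and -0.03 and 0.03 in the upper range. Single classes varied: the 28 receptor bins of the lowest class had a median of 0.18 against 0.13, the 31 of the fourth class 0.00 against 0.12, and the 11 of the fifth class 0.02 against 0.11.

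**Figure D3:**
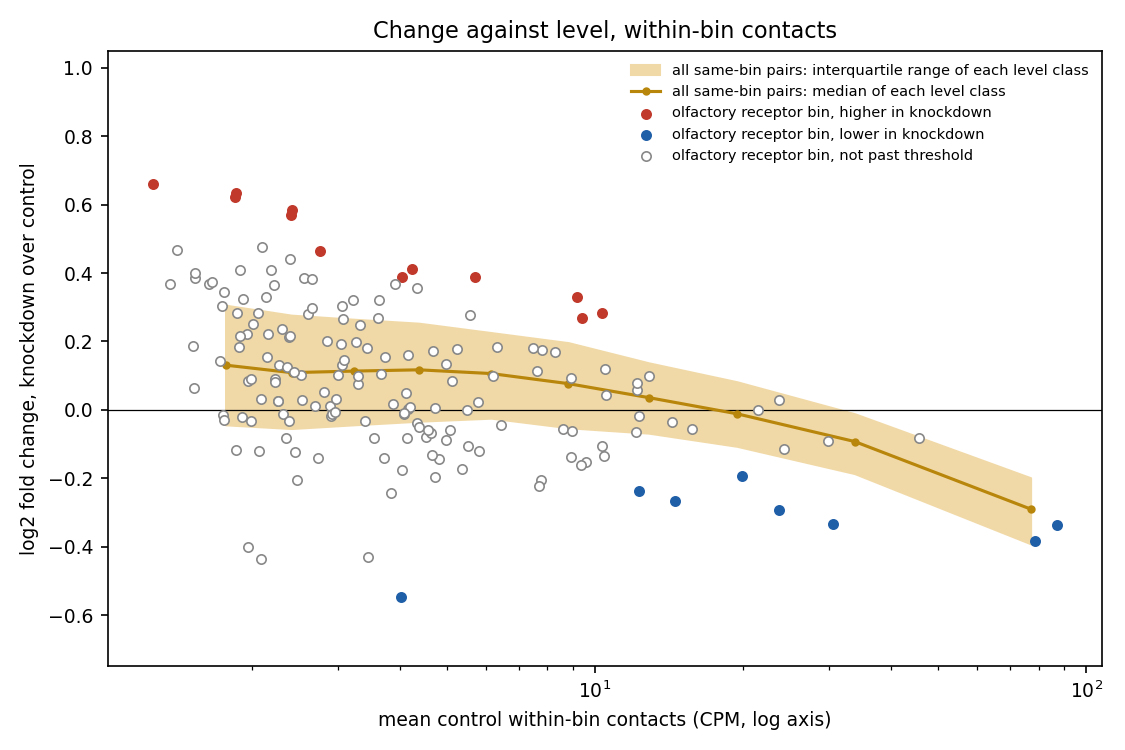
Log2 fold change, knockdown over control, against mean control level (CPM, log axis) for the 171 olfactory receptor bins; filled points are past the threshold. The line and band give the median and interquartile range of all same-bin pairs in 10 level classes, whose median runs from 0.13 to -0.29, and most receptor bins sit at its low-level end.

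Of the 12 bins that rose, 9 held no other protein-coding gene, as did 75.4% of all receptor bins. OR4C15 and OR4C16, class II receptors on chromosome 11 (55550001 to 55600000), had 1.37 and 1.15 CPM in control cells and 2.41 and 1.58 CPM in knockdown cells. The increase was 0.66 ± 0.23 (SE; edgeR adjusted p = 0.0309), and 0.57 (adjusted p = 0.0951) with the trend removed. Both knockdown libraries were above both control libraries, but they differed from each other by more than the control libraries did. Without knockdown library 1 the value was 0.33 (adjusted p = 0.621). The control mean of 1.26 CPM lies under the lower limit of the list, so this bin passed that limit through its knockdown libraries and could be listed only if it was higher there. In all, 7 receptor bins had a control mean under the limit and 2 a knockdown mean under it.

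OR10J1 on chromosome 1 (159400001 to 159450000) had 1.24 and 2.47 CPM in control cells and 2.76 and 3.01 CPM in knockdown cells. Its increase was 0.63 ± 0.20 (edgeR adjusted p = 0.0185), with control library 2 close to the knockdown libraries and control library 1 far lower. Without control library 1 it was 0.21 (adjusted p = 0.522), and without control library 2 it was 1.22. The bin of OR1J2, OR1J4, OR1N1 and OR1L8 on chromosome 9 (122500001 to 122550000) is among the 5 with most receptor genes. It had 1.92 and 1.78 CPM in control cells and 2.84 and 2.86 CPM in knockdown cells, a rise of 0.62 ± 0.20 (edgeR adjusted p = 0.0167). Its libraries were close within each group and well apart between groups. Under loess scaling the increases of these 2 bins were 0.55 (adjusted p = 0.0552) and 0.54 (adjusted p = 0.0515), just short of the threshold.

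The chromosome 11 cluster from OR6X1 to OR8A1 held 2 rises, 11.1 and 10.5 Mb from the last listed pair of the chromosome. OR8D4, OR4D5 and OR6T1 (123900001 to 123950000) had 2.23 and 2.60 CPM in control cells and 3.96 and 3.29 CPM in knockdown cells, 2.41 ± 0.260 against 3.62 ± 0.473 CPM (SD, n = 2). The increase of 0.58 ± 0.17 (edgeR adjusted p = 0.0104) also passed under loess scaling, at 0.51 (adjusted p = 0.0356). OR8A1 (124550001 to 124600000) had 2.84 and 1.97 CPM in control cells and 2.95 and 4.18 CPM in knockdown cells. Its lower knockdown library was only just above its higher control library, and the fit gave 0.57 ± 0.18 (edgeR adjusted p = 0.0154), or 0.50 (adjusted p = 0.0450) with the trend removed. Without control library 2 it was 0.33 (adjusted p = 0.220), and without knockdown library 2 it was 0.29 (adjusted p = 0.572). DESeq2 called the OR8D4 bin (adjusted p = 0.0303) and not the OR8A1 bin (adjusted p = 0.0941).

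OR10P1, the last gene of the chromosome 12 cluster (55600001 to 55650000), was the rise with the smallest adjusted p. It had 9.03 and 9.35 CPM in control cells and 12.6 and 10.5 CPM in knockdown cells, an increase of 0.33 ± 0.09 (edgeR adjusted p = 0.0059), or 0.32 (adjusted p = 0.018) with the trend removed. Without knockdown library 1 it was 0.19 (adjusted p = 0.455). This bin also has the highest control level of its cluster. The bin of OR10A7 and OR6C74, with the most receptor genes in the same cluster, went the other way without passing the test, from 1.90 and 2.04 CPM to 1.62 and 1.37 CPM (edgeR adjusted p = 0.226).

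Another 3 rises involved bins on chromosomes 7 and 19. OR2AE1, a lone receptor gene that shares its bin with CYP3A43 and TRIM4 (chromosome 7, 99850001 to 99900000), had 5.92 and 5.45 CPM in control cells and 7.40 and 7.49 CPM in knockdown cells. Its increase was 0.39 ± 0.11 (edgeR adjusted p = 0.00928) and it also passed under loess scaling, at 0.34 (adjusted p = 0.0425). OR9A4, which shares its bin with CLEC5A (chromosome 7, 141900001 to 141950000), had 4.12 and 3.97 CPM against 5.35 and 5.25 CPM, 0.39 ± 0.14 (edgeR adjusted p = 0.0351). OR7C1, OR7A5 and OR7A10 (chromosome 19, 14800001 to 14850000) had 3.84 and 4.64 CPM against 5.83 and 5.44 CPM, 0.41 ± 0.13 (edgeR adjusted p = 0.0203), or 0.27 (adjusted p = 0.190) without control library 1. These bins were named on condition that the groups did not overlap, so their separation adds no support. The last 2 missed the threshold under loess scaling (adjusted p = 0.112 and 0.0761).

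The remaining rises were OR52B2 with OR52W1, described below with its neighbour, and 2 smaller ones named after their values were seen. OR1I1, which shares its bin with CASP14 (chromosome 19, 15050001 to 15100000), went from 10.4 ± 0.816 to 12.6 ± 0.175 CPM, a rise of 0.28 ± 0.09 (edgeR adjusted p = 0.0137). OR10G3 (chromosome 14, 21550001 to 21600000) went from 9.42 ± 0.138 to 11.4 ± 0.0425 CPM, a rise of 0.27 ± 0.09 (edgeR adjusted p = 0.0281). OR1I1 also passed under loess scaling (adjusted p = 0.0298), whereas OR10G3 missed (adjusted p = 0.0628).

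**Figure D4:**
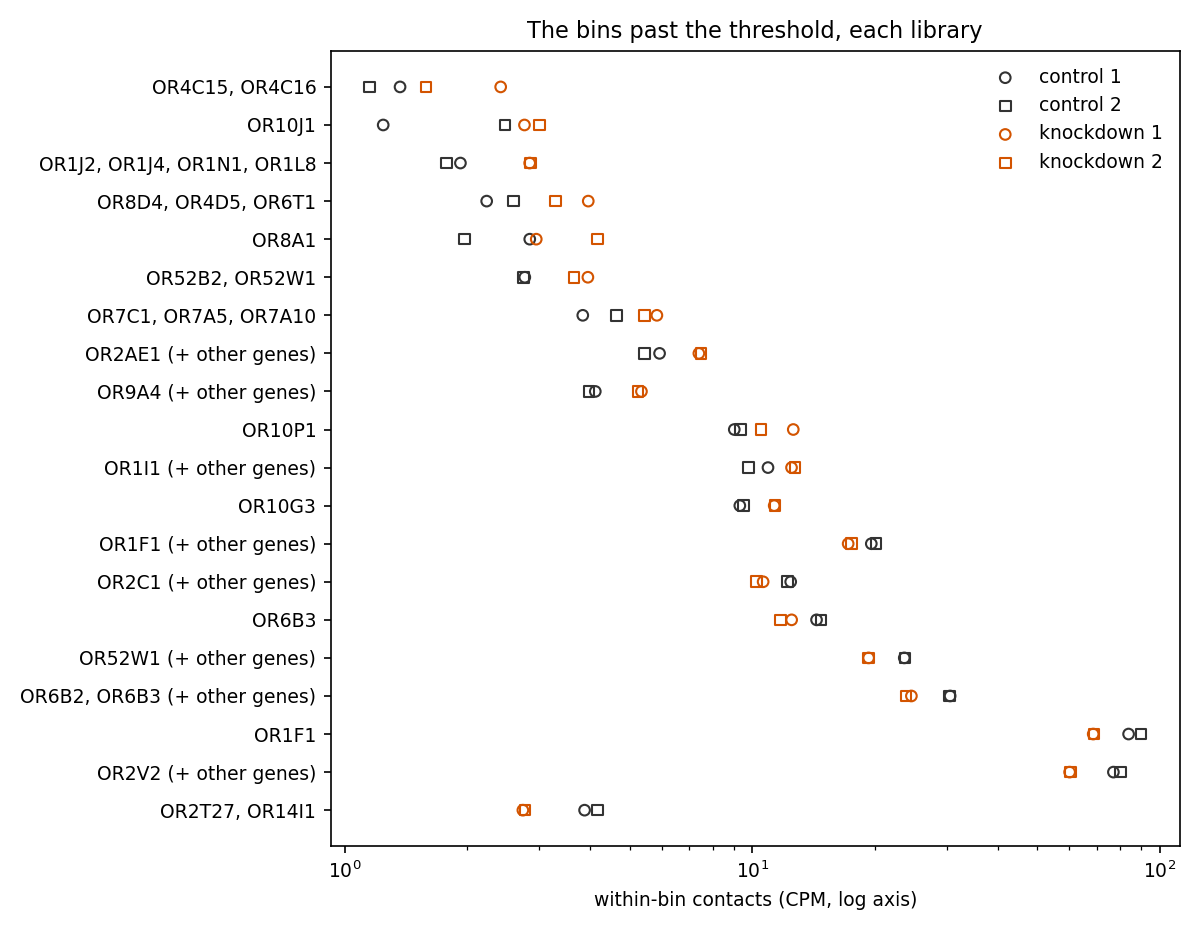
Within-bin contacts (CPM, log axis) in each of the 4 libraries for the 20 olfactory receptor bins past the threshold, ordered by fold change. Control and knockdown libraries do not overlap in any of them, and the OR2V2 bin and 1 of the OR1F1 bins lie far above the others at 60.1 CPM and more.

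Of the 8 bins that fell, 5 also held another protein-coding gene, as did 24.6% of all receptor bins. Of the same 8, 7 lay within 5 Mb of the first or last listed pair of their chromosome, as did 31.0% of all receptor bins. The largest decrease was at OR2T27 and OR14I1 (chromosome 1, 248650001 to 248700000), the last receptor genes before the end of the long arm. This bin had 3.88 and 4.17 CPM in control cells and 2.74 and 2.77 CPM in knockdown cells, a decrease of -0.55 ± 0.16 (edgeR adjusted p = 0.00982), or -0.62 (adjusted p = 0.00392) with the trend removed. It holds receptor genes alone, and both knockdown libraries were below both control libraries by more than the libraries of a group differed. In the same cluster the bin of OR2M2 and OR2M3 (248150001 to 248200000, chosen after its values were seen) was the 1 bin past the threshold with the trend removed alone. It had 3.58 and 3.32 CPM against 2.34 and 2.76 CPM, -0.43 (edgeR adjusted p = 0.0746) with TMM scaling and -0.51 (adjusted p = 0.0368) with the trend removed.

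OR6B2 and OR6B3, class II genes near the end of chromosome 2, fell in both of their bins. The bin of both genes, which also overlaps NDUFA10 (240000001 to 240050000), had 30.6 and 30.5 CPM in control cells and 24.6 and 23.9 CPM in knockdown cells, -0.33 ± 0.06 (edgeR adjusted p = 6.78e-06). The next bin, of OR6B3 alone (240050001 to 240100000), had 14.4 and 14.8 CPM against 12.5 and 11.7 CPM, -0.27 ± 0.08 (edgeR adjusted p = 0.0126). Both decreases also passed under loess scaling, at -0.25 (adjusted p = 0.00132) and -0.26 (adjusted p = 0.0275).

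The decreases with the smallest p-values were in bins of high level and did not hold when the trend was removed. OR2V2, which shares its bin with TRIM7 at the end of chromosome 5 (181150001 to 181200000), had 77.0 and 80.1 CPM in control cells and 60.1 and 60.4 CPM in knockdown cells, -0.38 ± 0.05 (edgeR adjusted p = 3.86e-09). OR1F1 (chromosome 16, 3150001 to 3200000) had 83.9 and 90.1 CPM against 68.7 and 69.0 CPM, -0.34 ± 0.05 (edgeR adjusted p = 2.37e-07). Under loess scaling these were -0.11 (adjusted p = 0.0517) and -0.04 (adjusted p = 0.588), so most of each decrease was shared with other bins of that level. The second OR1F1 bin, with ZNF200 and MEFV (3200001 to 3250000), fell by 0.19 ± 0.07 (edgeR adjusted p = 0.043). The nearby OR2C1 bin, with ZNF263, TIGD7 and ZNF75A (3300001 to 3350000), fell by 0.24 ± 0.09 (edgeR adjusted p = 0.0466). Neither of these 2 passed under loess scaling (adjusted p = 0.134 and 0.0649).

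At OR52W1, a class I gene on chromosome 11, adjoining bins moved in opposite directions. The bin of OR52B2 and the start of OR52W1 (6150001 to 6200000), whose promoters are printed above, had 2.77 and 2.75 CPM in control cells and 3.95 and 3.65 CPM in knockdown cells. It rose by 0.46 ± 0.17 (edgeR adjusted p = 0.0395). The next bin, which holds the rest of OR52W1 with C11orf42, FHIP1B and CNGA4 (6200001 to 6250000), had 23.6 and 23.7 CPM against 19.3 and 19.3 CPM and fell by 0.29 ± 0.07 (edgeR adjusted p = 0.000421). CNGA4 encodes a subunit of the olfactory cyclic nucleotide-gated channel. Contacts between these 2 bins went from 1.14 and 1.34 CPM to 1.88 and 1.94 CPM, 0.62 ± 0.23 (edgeR adjusted p = 0.0428). Their control mean of 1.24 CPM is under the lower limit of the list, so this pair could be listed only if it was higher after knockdown. Of the 3 changes only the decrease of the second bin also passed under loess scaling, at -0.24 (adjusted p = 0.00715), against adjusted p = 0.106 for the first bin and 0.128 for the contact between them.

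Counted by gene, 28 of the 246 listed genes (11.4%) lay over a called bin, 21 over a higher one, 8 over a lower one and 1, OR52W1, over both. Among 17891 autosomal protein-coding genes with a listed same-bin pair, 52.8% did, 7.67% over a higher and 46.4% over a lower bin. Bins per gene were not matched in this count. The loess fit put 7 receptor genes over a higher and 7 over a lower bin, against 12.4% and 15.4% of all such genes (27.5% over either).

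Most of the lower calls lay near the first or last listed pair of their chromosome, and most of the higher calls lay farther in. Within 5 Mb of the first or last listed pair lay 53 receptor bins, 1 higher and 7 lower (13.2%), with a median of -0.01. Over all autosomal same-bin pairs in that zone 1.28% were higher and 52.2% lower, and the median was -0.21. The 118 receptor bins farther in had 11 higher (9.32%) and 1 lower (0.847%) and a median of 0.10, against 7.83% higher, 11.4% lower and a median of 0.03 for all. The 1 higher call within 5 Mb, OR10G3 on chromosome 14 (21550001 to 21600000), lay 2.9 Mb from the first listed pair. The zone is therefore not a chromosome end in every case. The 8 calls in the zone include the high-level bins on chromosomes 5 and 16. The part of level and of position in these counts was not tested.

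Bins of both receptor classes were among the calls. The 20 bins with class I genes all lay in the cluster from OR52B4 to OR10A3. Their median was 0.12, with 1 higher (5%) and 1 lower (5%). The 151 class II bins had a median of 0.06, with 11 higher (7.28%) and 7 lower (4.64%). Over all same-bin pairs 7.4% were higher and 14.3% lower. Under loess scaling the class I and class II medians were 0.07 and 0.01. By family, the bins of family 1 had a median of 0.18 over 20 bins (0.15 with the trend removed), and those of family 2 had -0.02 over 36 bins (-0.06). Among the larger families, family 10 had 3 higher and 0 lower of 24 bins and family 5 had none called of 18. Their control medians were low, 3.13 and 2.83 CPM. In the lowest 4 of 10 level classes 6.74% of all same-bin pairs were higher and 0.847% lower.

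By cluster, 12 of 145 bins inside clusters of 5 or more genes were called, 10 higher (6.90%) and 2 lower (1.38%). Outside them 8 of 26 were called, 2 higher (7.69%) and 6 lower (23.1%). Over all same-bin pairs 21.7% were called, 7.4% higher and 14.3% lower. The control median was 3.07 CPM inside and 6.74 CPM outside, and the part of level in this contrast was not tested. The calls inside were spread over 9 of the 16 clusters with a listed bin, at most 2 in any of them, and with the trend removed over 5. Cluster medians were above 0 in 11 of 16 clusters, and in 10 with the trend removed. Of all 48992 same-bin pairs, 26481 were above 0, and 28266 with the trend removed. In the lowest 4 of 10 level classes their median was 0.12 (0.04 with the trend removed). Nothing particular to the clusters is therefore read from these counts. The chromosome 9 cluster from OR1J2 to OR1K1 had the highest median, 0.28 over 9 bins (0.20 with the trend removed), followed by the chromosome 17 cluster from OR1D5 to OR1E2 with 0.27 over 7 bins (0.19) and no bin called. The chromosome 1 cluster from OR2B11 to OR14I1 had the lowest with TMM scaling, -0.09 over 17 bins, with 4 bins above 0. Under loess scaling it had -0.10, and the chromosome 12 cluster from OR9K2 to OR10P1 was lower, at -0.16 over 5 bins.

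Summed over its bins, a cluster could be read in each library. The chromosome 9 cluster held 47.7 and 47.6 CPM in control cells and 51.3 and 51.8 CPM in knockdown cells, a log2 ratio of 0.11. The chromosome 11 cluster from OR6X1 to OR8A1 held 33.5 and 33.0 CPM against 37.1 and 37.2 CPM, a ratio of 0.16. In both, the knockdown libraries were above the control libraries by more than the spread in either group. The chromosome 1 cluster from OR2B11 to OR14I1 held 116 and 118 CPM against 111 and 107 CPM, 117 ± 1.09 against 109 ± 3.33 CPM (SD, n = 2), a ratio of -0.10. The largest cluster, from OR52B4 to OR10A3, held 110 and 105 CPM against 109 and 109 CPM, and its groups overlapped. With TMM scaling 10 of the 16 sums were higher without overlap, 1 was lower without overlap and 5 overlapped. Among single same-bin pairs these shares were 31.4% and 28.5%, and pairs of low level had a median above 0 across the genome, so nothing particular to the clusters is read from the count. With 2 libraries against 2 an exact two-sided permutation test cannot give a p below 0.333, so no test was made on these sums.

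**Figure D5:**
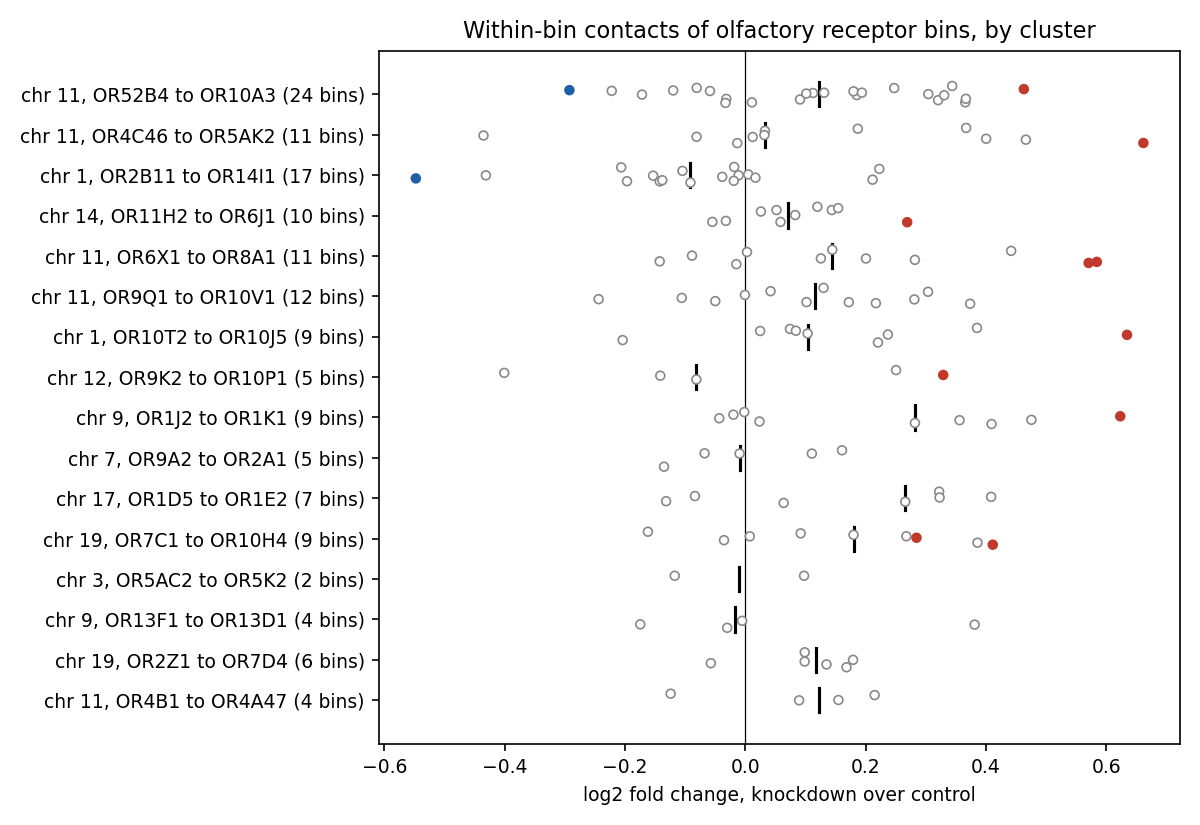
Log2 fold change, knockdown over control, of each olfactory receptor bin (points) in the 16 clusters of 5 or more genes that have a listed bin; filled points are past the threshold and the vertical tick is the cluster median. Medians run from -0.09 in the chromosome 1 cluster from OR2B11 to OR14I1 to 0.28 in the chromosome 9 cluster from OR1J2 to OR1K1.

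Of the 16 bins with the highest control level in their cluster, 6 hold another protein-coding gene, as do 24.6% of all receptor bins. OR2B11 shares its bin with NLRP3 and had 30.0 and 29.6 CPM in control cells and 29.6 and 26.4 CPM in knockdown cells, with overlapping groups. OR1K1 shares its bin with PDCL and RC3H2 and had 21.8 and 21.1 CPM against 21.3 and 21.6 CPM, a fold change of 0.00 (edgeR adjusted p = 0.991). That bin lies in the cluster with the highest median, whose other bins are far lower in level. OR6S1, the highest bin of the chromosome 14 cluster, had 15.6 and 15.9 CPM against 15.3 and 15.0 CPM, a difference of -0.05 (edgeR adjusted p = 0.688). Among these 16, the OR10P1 and OR52W1 bins were called, beside 11.7% of all receptor bins and 21.7% of all same-bin pairs. Among bins with the most receptor genes, OR10G4, OR10G9, OR10G8 and OR10G7 on chromosome 11 had 2.55 and 2.25 CPM against 3.67 and 2.86 CPM, 0.44 ± 0.18, without passing the test (edgeR adjusted p = 0.0792).

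Of 14 receptors looked up because their ligands or their expression outside the nose are well known, 10 had a listed bin and none was in a called one. Over all receptor bins 11.7% were called, and over all same-bin pairs 21.7%. With so few bins, nothing particular to these receptors is read from that count. OR51E1 and OR51E2, receptors also expressed in prostate, share a bin with OR51C1 (chromosome 11, 4650001 to 4700000), which had 3.77 and 2.65 CPM in control cells and 4.19 and 3.83 CPM in knockdown cells, 0.32 ± 0.16 (edgeR adjusted p = 0.166). The 2 knockdown libraries were the highest, but the control libraries differed by more than the gap between groups. The second OR51E1 bin, with OR51D1 and TRIM68, had 7.40 and 7.84 CPM against 8.24 and 8.24 CPM (0.11, edgeR adjusted p = 0.513). OR7D4, the androstenone receptor, shares a bin with OR7E24 that had 5.33 and 5.12 CPM against 5.93 and 5.90 CPM (0.18, edgeR adjusted p = 0.355). OR2AT4, a sandalwood-odorant receptor of skin, had 8.14 and 7.47 CPM against 9.18 and 8.43 CPM (0.17, edgeR adjusted p = 0.258). In all 4 of these bins the groups did not overlap, and the difference did not pass the test at this depth. Such separation was common, in 59.9% of all same-bin pairs (31.4% higher after knockdown). Among the other known receptors below, the groups overlapped at OR5A1, OR2W3 and the first OR1D2 bin.

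Other known receptors were as follows. OR5AN1, a musk receptor, had a difference of 0.30 (edgeR adjusted p = 0.203), OR10J5, a lyral receptor, 0.39 (adjusted p = 0.248), and OR6A2, an aldehyde receptor, 0.37 (adjusted p = 0.266). OR5A1, the beta-ionone receptor, had -0.05 (edgeR adjusted p = 0.862), and OR2W3, in a bin with TRIM58, had -0.10 (adjusted p = 0.496). OR1D2, a receptor also found in sperm, lies over 2 bins with 0.06 (edgeR adjusted p = 0.892) and 0.27 (adjusted p = 0.281). OR1A1, OR2J3, OR11A1 and OR4F5 had no listed same-bin pair and so no value.

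Contacts between bins were few for this family. Only 54 listed pairs of different bins had an olfactory receptor bin at either end, 38 of them between adjoining bins, 12 at 100 to 150 kb and 4 at 200 kb or more. Of the 54, 4 were called, 3 higher and 1 lower, against 9.6% of all between-bin pairs (3.76% higher and 5.84% lower), and their median was 0.06 against 0.02. In 7 pairs both bins held a receptor gene, all of them adjoining, and 2 of those were higher. Removal of the trend left 0 of the 54, against 8.45% of all between-bin pairs. DESeq2 likewise called 0 (5.97% of all), and the authors' deposited table has 0 past the threshold (8.43% of all). In the TMM fit the count was 0 without either knockdown library, 6 without control library 1 and 1 without control library 2. No contact between separate receptor clusters is in the list used here, so aggregates of clusters could not be examined.

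Besides the OR52W1 contact, the 3 called pairs lay on chromosomes 17 and 5. The adjoining bins of OR4D1 and OR4D2 (58100001 to 58150000 and 58150001 to 58200000) had 2.25 and 2.26 CPM in control cells and 3.37 and 3.01 CPM in knockdown cells, a rise of 0.50 ± 0.18 (edgeR adjusted p = 0.0449). From the OR4D1 bin to that of MRPS23 and CUEDC1, 250 kb away, contacts were 2.96 and 2.67 CPM against 3.60 and 4.08 CPM, 0.45 ± 0.16 (edgeR adjusted p = 0.0454). Both rose without overlap, while neither same-bin pair of OR4D1 and OR4D2 was called. OR2V2 and the adjoining bin of TRIM7, TRIM41, RACK1 and TRIM52 had 16.2 and 18.4 CPM against 15.3 and 14.6 CPM, -0.21 ± 0.08 (edgeR adjusted p = 0.0446).

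Genes that act with or on the receptors were compared through the same fit. Of 16 olfactory transduction genes, all listed, 12 lay over a called bin, 3 with a higher and 9 with a lower one. Over all genes these shares were 52.8%, 7.67% and 46.4%. With the trend removed 7 lay over a called bin, 3 higher and 4 lower, beside 27.5%, 12.4% and 15.4% of all genes. Most of the lower ones lie in bins of high level, such as GNG13, a G protein gamma subunit, with 133 and 146 CPM in control cells and 92.1 and 95.4 CPM in knockdown cells (-0.57; -0.18 with the trend removed). ADCY3, the cyclase of odour signalling, fell by 0.36 with TMM scaling and had -0.08 with the trend removed (edgeR adjusted p = 0.156). PDE1C, a phosphodiesterase that degrades cyclic AMP, had its largest difference, a rise of 0.58 (edgeR adjusted p = 0.0448), in a bin of 1.75 and 1.51 CPM against 2.59 and 2.27 CPM. That bin is 1 of 17 over PDE1C, of which 4 were called. With the trend removed it missed the threshold, at 0.49 (adjusted p = 0.117). GNAL, the olfactory G protein alpha subunit, had no called bin of 5.

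Among 17 genes of receptor choice and silencing, 16 were listed and 12 lay over a called bin, 1 over a higher and 12 over a lower one, beside 52.8%, 7.67% and 46.4% of all genes. Under loess scaling 5 did, 1 over a higher and 5 over a lower one, beside 27.5%, 12.4% and 15.4%. EBF1, a transcription factor of olfactory neurons, rose in a bin with 3.24 and 3.45 CPM in control cells and 5.24 and 4.58 CPM in knockdown cells (0.55, edgeR adjusted p = 0.00312), and also passed under loess scaling (0.48, adjusted p = 0.0163). Another bin of EBF1, with 19.4 and 19.5 CPM in control cells and 14.9 and 14.4 CPM in knockdown cells, went the other way (-0.41, edgeR adjusted p = 3.01e-06, and -0.39 under loess scaling). These were the 2 called bins of the 9 over EBF1. EBF3, a relative of EBF1, fell by 0.50 and EHMT1, a histone H3 lysine methyltransferase, by 0.48 with TMM scaling. Under loess scaling these 2 had -0.33 and -0.29, and both remained past the threshold.

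Other chemoreceptor families were read in the same way. Of 27 taste receptor genes 13 were listed, 2 over a higher and 4 over a lower bin, beside 7.67% and 46.4% of all genes. The loess fit put 1 over a higher and 1 over a lower bin, beside 12.4% and 15.4%. With TMM scaling TAS2R16, a bitter receptor, rose by 0.63 (edgeR adjusted p = 0.0274). TAS1R3, a subunit of the sweet and umami receptors, fell by 0.62. Their bins had 1.53 and 170 CPM in control cells. With the trend removed TAS2R16 missed the threshold, at 0.55 (adjusted p = 0.0811), and TAS1R3 passed it, at -0.19 (adjusted p = 1.3e-06). The control mean of the TAS2R16 bin is under the lower limit of the list, so that bin too could be listed only if it was higher after knockdown. Of 6 trace amine receptor genes, all listed, TAAR9 lay over the 1 called bin, with 7.06 and 6.39 CPM in control cells and 5.45 and 5.02 CPM in knockdown cells (-0.36, edgeR adjusted p = 0.0241). It remained lower with the trend removed, at -0.42. The 3 vomeronasal receptor genes had 2 listed bins and none called. Over all same-bin pairs 21.7% were called, and the trace amine and vomeronasal families have too few bins to compare with that share.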

How the data were processed

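Micro-C contacts of 2 control and 2 TDP-43 knockdown libraries were used. Per the submitters' processing notes, HiC-Pro and the hg38 build were used, with no versions given. What was merged, as the library titles say, is not stated. Per the file headers, the deposited table gives raw contact counts per library for pairs of 50 kb bins, with the authors' fold change and mean abundance on the log2 scale, an F statistic (here a score) and p-values before and after adjustment. The list holds the more abundant pairs only, so sums over it understate the sequencing depth. The reads themselves were not analysed here.

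R 4.3.3 with edgeR 4.0.16 and limma 3.58.1 fitted the counts over all 89239 pairs with TMM scaling (factors 0.966 and 0.944 for control and 1.05 and 1.04 for knockdown libraries), filterByExpr, which removed 0 pairs, glmQLFit and glmQLFTest, and Benjamini-Hochberg adjustment. Common dispersion came to 0.00812 (coefficient of variation 9.01%). The test was checked on simulated counts with known changes. CPM are means ± SD of 2 libraries, and fold changes ± SE. Gene bodies came from RefSeq (GRCh38.p14), whose coordinates are those of hg38. A bin counted where it overlapped the gene body. OR9G9, OR8U8 and OR8U9, 3 further genes placed on alternate loci only, were left out. Python 3.11.15, pandas 2.3.3, numpy 2.4.6, scipy 1.17.1 and matplotlib 3.10.9 were used.

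The members, gene lists and rules were chosen with earlier results of these data known. The text names the 10 largest increases and 10 largest decreases among called bins without overlap between groups (8 decreases qualified), the highest bin and the bin with most receptor genes in each cluster of 5 or more genes, a set of well-known receptors, and up to 4 genes per other list. Genes named for a count of calls with the trend removed, GNAL and between-bin pairs fall outside it, chosen after seeing their values. The alternatives were removal of the abundance trend by loess (span 0.3), DESeq2 1.42.0, the authors' deposited table, no filter, each library left out, a replicate block, a stricter threshold of 0.01, same-bin or autosomal pairs only, bins with an annotated start, bins without another gene, and clusters joined over 500 kb. Loess with each library left out, and loess on same-bin pairs only, were added after seeing the data. The loess fold changes differed from the authors' by at most 0.00237.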

Additional observations from a re-analysis of the deposited data

How the results depend on the processing

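With the trend removed, 10 receptor bins were called (5 higher, 5 lower), in 5 clusters, with 0 between-bin pairs and 15 genes of the other lists in place of 31; the authors' deposited table gave 10 (5 and 5), 5, 0 and 15. DESeq2 gave 9 (3 higher), 4 clusters and 0 between-bin pairs. The threshold of 0.01 left 7 (2 higher, 5 lower) in 3 clusters. Loess on same-bin pairs alone, added after seeing the data, gave 9 (2 higher) in 4 clusters. Bins with an annotated start held 4 lower calls, bins without another gene held 12 calls with 3 lower, and pairs with a receptor gene at both ends held 2 of the 4 between-bin calls. Leaving out each library in turn gave 5 to 17 calls (1 to 9 higher, 4 to 8 lower) in 2 to 11 clusters, and 0 to 6 between-bin pairs. With the trend removed, an analysis chosen after seeing the data, it gave 0 to 12 (0 to 6 higher, 0 to 6 lower), 0 to 9 clusters and 0 to 3 pairs. Of the 18 named called bins, 8 stayed past the threshold with the trend removed and 9 with DESeq2. All 18 stayed past it with no filter, autosomal pairs only or same-bin pairs only. No named called bin reversed under any of these 16 alternatives. They reuse the same libraries, so the absence of a reversal is no independent check of direction. The counts stayed within 1.5 times the reported ones with no filter, autosomal pairs, same-bin pairs only and clusters joined over 500 kb.

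The replicate numbers pair the libraries in number only: the deviations of same-numbered libraries correlated at 0.0193 across pairs. With the replicate block 22 receptor bins were called, 14 higher and 8 lower, in 9 clusters, with 4 between-bin pairs, and all 18 named called bins stayed past the threshold. With 2 libraries per group and median counts of 449 to 550 per receptor bin and library, the median SE was 0.16, against 0.11 for all same-bin pairs, so small changes were not detectable at this depth.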
